A study of Mus musculus with 8 samples.

Results

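Osteocyte marker genes are genes by which osteocytes, the cells buried in mineralised bone matrix, are told from the osteoblasts they come from. They were Dmp1, Phex, Pdpn, Cd44, Capg, Dstn, Fbln7, Irx5, Mef2c and Ank3. The 10 genes were taken from the deposited expression table by gene symbol, as a list chosen with earlier results of these data known, and each had 1 row among the 16369 genes of the table. RNA was sequenced from MLO-Y4, an immortalised osteocyte-like mouse cell line, cultured in medium with fetal bovine and calf serum and then exposed in fluid chamber slides to a shear stress of 2 Pa for 4 cycles. In 4 samples the long non-coding RNA H19 had been silenced with an antisense oligonucleotide (ASO), and 4 samples were controls with unsilenced H19, labelled WT and called NC in the deposited columns. All samples shared the shear stress, so the contrast of ASO with control describes the ASO under flow. What the controls received in place of the ASO is not stated, and H19 itself is not analysed here. Since no label ties the replicates to separate cultures, every p-value below reflects variation among these libraries only, and that variation may be technical.

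As an osteoblast becomes an osteocyte it extends dendritic processes through canals in the matrix and senses fluid flow along them. Podoplanin (Pdpn), CD44 and the actin-binding proteins destrin (Dstn) and CapG (Capg) belong to the early, dendrite-forming stage, and Phex and Dmp1 to the mineralising stage that follows, with Mef2c known as a transcription factor that acts on the sclerostin gene in mature osteocytes. MLO-Y4 cells came from the long bone of a mouse that carried the large T antigen under the osteocalcin promoter, and the line is known as a model of the early osteocyte, with long processes and little expression of the late genes.

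Each library had between 19501984 and 19914209 estimated reads. At this depth 0 reads of a gene allow a level of up to 0.154 CPM, which is the read count scaled to library size, taking 3 reads as the limit and covering counting error only. The first principal component of all tested genes (46.0% of the variance) separated ASO from control, and on the second (17.1%) samples 3 and 4 of each group lay apart from samples 1 and 2, a division that the labels do not name. It was read from these same libraries, so the fits by this division below lend no separate support to any marker. The defining markers of osteocytes at their latest stage were near 0, with at most 2 reads of Sost and at most 1 of Mepe in any library. The summed level of the osteoblast genes was high, and most of it came from the collagen genes Col1a1 and Col1a2. It ran from 2708 to 3435 TPM, a length-corrected share of the library, in ASO and from 2841 to 3695 TPM in control libraries. Col1a1 stood at 1808 TPM in ASO and 1687 TPM in control, and Col1a2 at 865 TPM in ASO and 950 TPM in control. Of the 7 osteoblast genes tested, 2 were higher and 2 lower, against 7.11% higher and 7.53% lower of all tested genes. Sp7 stood at 5.60 ± 0.81 TPM in ASO and 4.18 ± 0.46 TPM in control (0.43 ± 0.12, adjusted p = 0.026), and Alpl at 46.0 ± 3.11 TPM in ASO and 36.2 ± 1.97 TPM in control (0.37 ± 0.07, adjusted p = 0.0039). The osteocalcin genes were the lower ones, Bglap at 80.7 ± 20.2 TPM in ASO and 124 ± 9.16 TPM in control (-0.60 ± 0.15, adjusted p = 0.018) and Bglap2 at 209 ± 43.6 TPM in ASO and 350 ± 37.6 TPM in control (-0.72 ± 0.13, adjusted p = 0.0037). Epithelial genes summed to 0.29 to 0.59 TPM in ASO and 0.40 to 0.92 TPM in control, and endothelial genes to 0.22 to 0.46 TPM in ASO and 0.05 to 0.21 TPM in control. No gene of either list was high enough to test. The endothelial sum held only Pecam1 and Tek, with at most 16 and 4 reads in any library. Chondrocyte genes summed to 68.6 to 89.7 TPM in ASO and 95.6 to 141 TPM in control (3 of 3 tested lower), adipocyte genes to 56.6 to 72.1 TPM in ASO and 76.7 to 91.8 TPM in control (1 of 3 lower), and skeletal muscle genes to 5.44 to 9.89 TPM in ASO and 11.9 to 18.8 TPM in control (2 of 2 lower). Osteoclast genes summed to 84.3 to 118 TPM in ASO and 97.4 to 144 TPM in control (1 of 3 lower), and of the markers with a row none was at 0 in all 8 libraries. Of all tested genes 7.53% were lower. Sox9 led the chondrocyte sum, Cebpa the adipocyte, Acta1 the skeletal muscle and Ctsk the osteoclast sum. Col2a1 stood at only 0.18 TPM in ASO and 0.39 TPM in control, and Acp5 at 0.93 TPM in ASO and 1.45 TPM in control. Adipoq had at most 2 reads in any library. Of the skeletal muscle genes, Myod1, Myog and Ckm were near 0, with at most 4, 1 and 3 reads in any library. Whether cells of these types were present was not tested. The part of these shifts in the changes of the osteocyte markers was not tested either, and in bulk RNA fewer cells of a type and less RNA per cell cannot be told apart.

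The osteocyte markers moved in both directions with the ASO, and most by little. Of the 10 genes, 9 passed the filter on low counts, and 6 of these differed from control (adjusted p under 0.05 by Benjamini-Hochberg over all tested genes, from the quasi-likelihood test of edgeR), against 14.6% of all 12227 tested genes. Dmp1, Fbln7 and Dstn were lower, as were 7.53% of all tested genes. Pdpn, Cd44 and Capg were higher, as were 7.11% of all tested genes. Phex, Irx5 and Ank3 did not pass, and Mef2c was too low to test. The ASO and control libraries did not overlap in CPM for 7 of the 9, which are the 6 called genes and Irx5, against 19.1% of all tested genes. The median absolute log2 fold change was 0.19 over the 9 markers, 0.13 over all tested genes and 0.38 over all called genes. Among the 9 tested markers Dmp1 alone changed by more than 2-fold, and 12 called genes of the whole table fell further than it did. The 3 lower calls held in all 8 fits that left out 1 library, whereas each of the 3 higher calls ended in at least 5 of those fits.

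**Figure D1:**
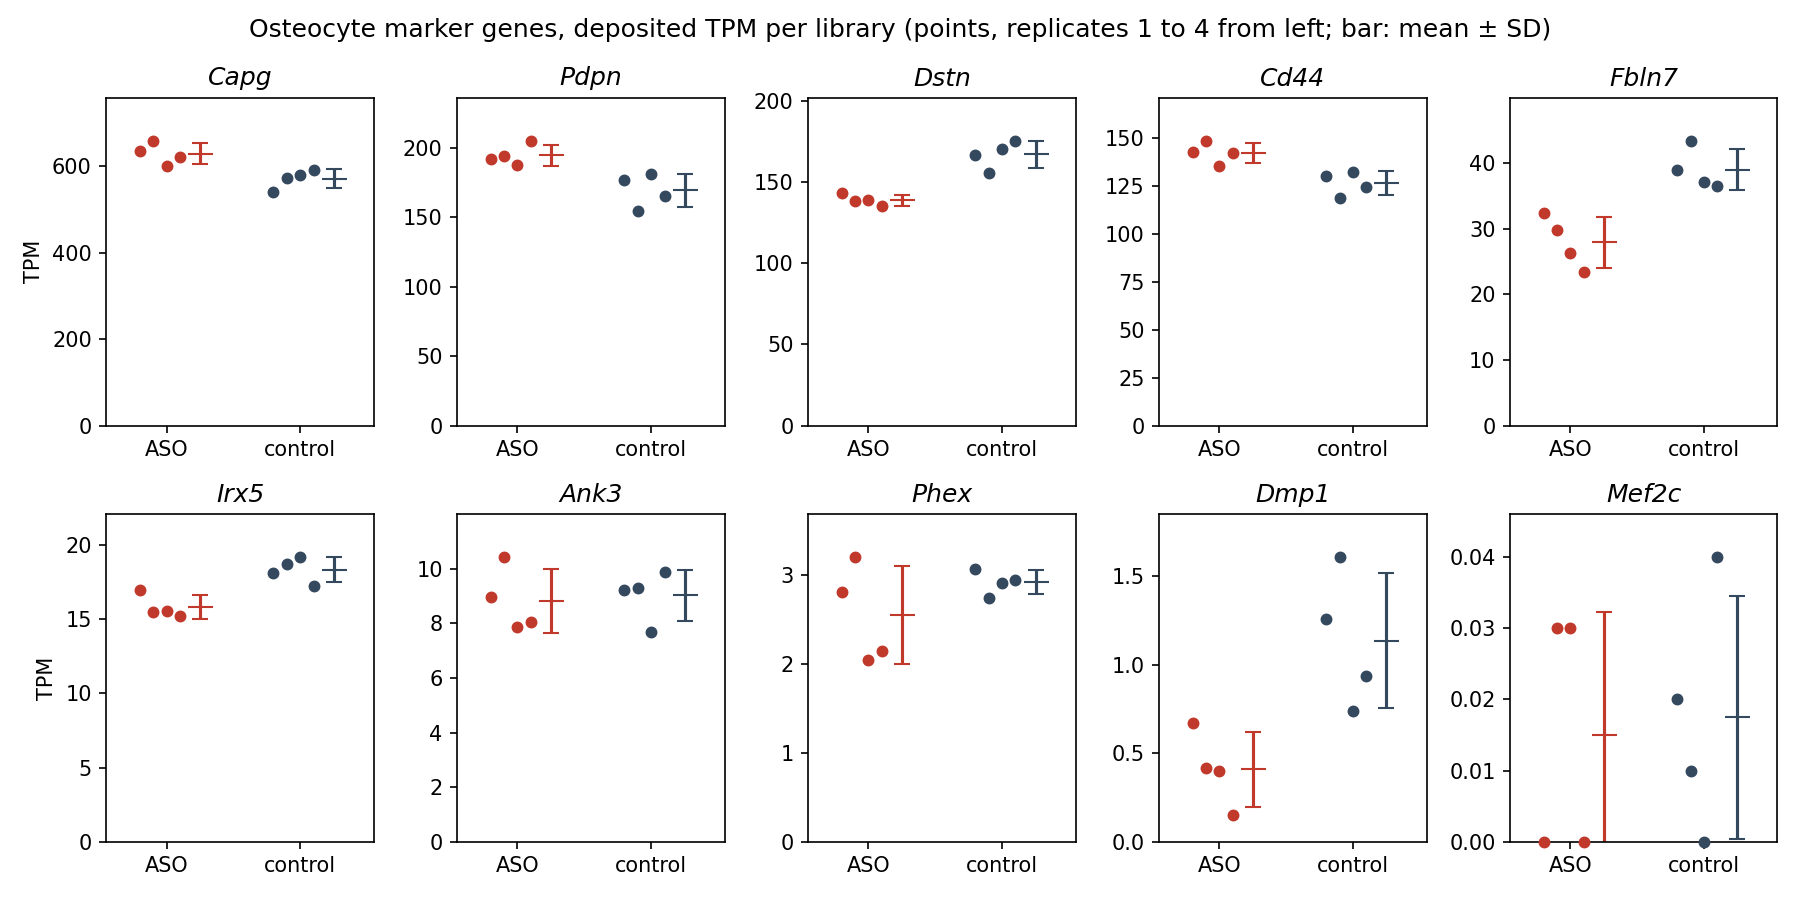
TPM of each osteocyte marker in the 4 ASO and the 4 control libraries (y axes start at 0 and differ between panels), in order of level, with the mean and SD of each group beside the points. ASO libraries lie wholly above control for Capg, Pdpn and Cd44 and wholly below for Dstn, Fbln7, Irx5 and Dmp1, while the groups overlap for Ank3, Phex and Mef2c.

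**Figure D2:**
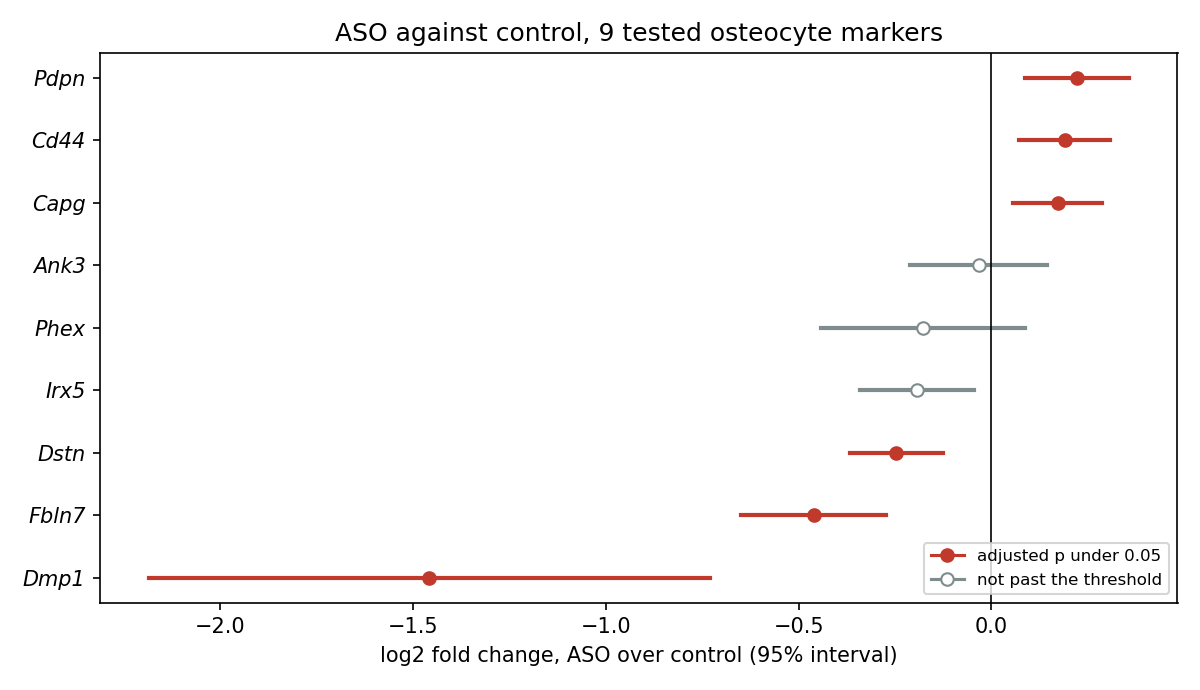
Log2 fold change of ASO over control for the 9 tested markers with 95% intervals from the edgeR fit, filled where the adjusted p was under 0.05. Dmp1 is set apart at -1.46, the other markers lie between -0.46 and 0.22, and the intervals of Ank3 and Phex cross 0.

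Dmp1 and Phex are the markers of mineralisation. Dmp1 encodes dentin matrix protein 1, an acidic phosphoprotein of the SIBLING family that binds hydroxyapatite, and Phex an endopeptidase of the cell surface; loss of either raises the phosphate hormone FGF23 and causes hypophosphataemic rickets. Dmp1 (gene 13406, chromosome 5, 104197575 to 104214102, GRCm38.p6) had 21, 13, 13 and 5 reads in ASO libraries 1 to 4, against 39, 49, 24 and 29 reads in control libraries 1 to 4. Every ASO library lay below every control library, and in both groups the highest value was in sample 1 or 2. The level was 0.41 ± 0.21 TPM in ASO and 1.14 ± 0.38 TPM in control (SD, n = 4 each), a log2 fold change of -1.46 ± 0.34 (SE, edgeR adjusted p = 0.012). On deposited TPM, as log2(TPM + 1) without a filter, the value was -0.60 (limma adjusted p = 0.0429), a scale that understates changes of low genes. Its 95% interval ran from -2.19 to -0.73, the widest of the 9 markers, with 52 reads in all ASO libraries together and 141 in the control libraries. Within samples 1 and 2 alone the log2 fold change was -1.39 (adjusted p = 0.0230), and within samples 3 and 4 alone -1.57 (adjusted p = 0.00828).

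Phex (gene 18675, chromosome X, 157162075 to 157415286) had 213, 237, 161 and 167 reads in ASO libraries and 226, 201, 219 and 219 reads in control libraries. ASO libraries 3 and 4 lay below all controls, ASO library 2 above all of them, and ASO library 1 among them. Its level was 2.55 ± 0.55 TPM in ASO and 2.92 ± 0.14 TPM in control, and the log2 fold change of -0.18 ± 0.12 did not pass (adjusted p = 0.35, 95% interval -0.44 to 0.09). In samples 3 and 4 alone Phex was lower (-0.44, adjusted p = 0.0206), and in samples 1 and 2 alone the value was 0.05 (adjusted p = 0.863). A test of the difference between these parts, run after the values of Phex had been seen, gave -0.49 ± 0.18 (edgeR unadjusted p = 0.014, adjusted p = 0.61), and it called 0 genes in the whole table (809 at an unadjusted p under 0.05; no other tool was run).

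More than 1 start is listed for Dmp1 by RefSeq, and their sequences from 250 bases before to 50 after the start are shown because Dmp1 was the marker that changed most. Pdpn, which rose, is shown beside them as the other marker whose window holds the same E-box. Capitals mark matches to the 6 motifs searched on both strands, which were the TATA box TATAAA, the RUNX motif TGTGGT, the MEF2 motif as CTA and TAG around any 4 bases, the E-box CACGTG, the AP-1 motif TGANTCA and the GC box GGGCGG.
Dmp1, gene start, chr5:104197325-104197624, plus strand: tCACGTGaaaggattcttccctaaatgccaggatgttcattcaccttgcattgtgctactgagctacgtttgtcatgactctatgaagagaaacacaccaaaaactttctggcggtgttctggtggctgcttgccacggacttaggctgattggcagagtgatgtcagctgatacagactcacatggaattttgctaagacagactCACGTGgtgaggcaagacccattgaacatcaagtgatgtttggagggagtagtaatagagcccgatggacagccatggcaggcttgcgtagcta
Dmp1, inner start, chr5:104202367-104202666, plus strand: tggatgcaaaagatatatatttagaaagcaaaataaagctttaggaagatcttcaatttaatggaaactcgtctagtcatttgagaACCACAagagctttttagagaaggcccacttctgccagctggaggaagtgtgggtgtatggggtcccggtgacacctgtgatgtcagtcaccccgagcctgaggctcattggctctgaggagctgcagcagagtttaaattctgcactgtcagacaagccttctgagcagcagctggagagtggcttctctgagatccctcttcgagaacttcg
Pdpn, gene start, chr4:143299515-143299814, minus strand: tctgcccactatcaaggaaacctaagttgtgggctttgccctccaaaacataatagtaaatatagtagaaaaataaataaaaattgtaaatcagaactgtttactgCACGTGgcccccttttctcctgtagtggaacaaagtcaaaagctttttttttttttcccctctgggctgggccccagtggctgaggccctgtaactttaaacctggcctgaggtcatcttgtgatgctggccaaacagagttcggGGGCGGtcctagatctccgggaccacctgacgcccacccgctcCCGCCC
The window at the gene start of Dmp1 held the E-box at positions -249 and -44 from the start, and that of Pdpn held it at position -144 beside 2 GC boxes. Of 32851 RefSeq promoter windows of GRCm38.p6, 7.15% held at least 1 such E-box and 0.594% held at least 2. The share with at least 2 was counted for this motif alone of the 6 searched, with no allowance for that choice. At least 1 GC box was held by 35.7% of the windows. The inner start of Dmp1 held 1 RUNX motif on the opposite strand, at position -164 from that start, as did 16.8% of all windows in either orientation. A motif found in both a lower and a higher marker is a description of these letters, and its part in either change was not tested. Reads were counted per gene, so which start was used cannot be read from the table.

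Around these genes, 6 further members of the SIBLING and phosphate hormone list were tested (median log2 fold change -0.17, against 0.0026 over all tested genes). Of these 6, 0 were higher and 1 was lower, close to the 14.6% called in either direction over all tested genes (7.11% higher and 7.53% lower). That gene was Fam20c, the kinase that phosphorylates SIBLING proteins, with 12.7, 8.55, 9.96 and 10.6 TPM in ASO libraries and 15.3, 17.1, 14.8 and 17.7 TPM in control libraries. Its groups did not overlap, and its log2 fold change was -0.61 ± 0.11 (adjusted p = 0.0028). Other SIBLING genes lay at the ends of the range of levels. Spp1, which encodes osteopontin, stood at 20240 ± 1651 TPM in ASO and 18720 ± 597 TPM in control without passing (0.13 ± 0.07, adjusted p = 0.24), and the bone sialoprotein gene Ibsp had at most 1 read in any library. Both were named after their values had been seen.

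Pdpn and Cd44, the surface proteins of the early osteocyte, were both slightly higher with the ASO. Podoplanin is a mucin-like membrane protein that is needed for dendrite elongation and links to the actin cortex through ezrin and its relatives, and CD44 is the main receptor for hyaluronan and a binding partner of podoplanin. Pdpn (gene 14726, chromosome 4, 143267409 to 143299564) had 192, 194, 187 and 205 TPM in ASO libraries, against 177, 154, 181 and 165 TPM in control libraries. The lowest ASO library lay just above the highest control library. The log2 fold change was 0.22 ± 0.06 (adjusted p = 0.031), a rise of 16.6%, from 15580 reads in ASO and 13126 in control libraries. The call ended without ASO replicate 3 (adjusted p = 0.0633), ASO replicate 4 (0.0960), control replicate 1 (0.0504), control replicate 2 (0.105) or control replicate 4 (0.0845). In samples 3 and 4 alone Pdpn was higher (0.22, adjusted p = 0.0475), and in samples 1 and 2 alone the value was 0.22 (adjusted p = 0.0929).

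Cd44 (gene 12505, chromosome 2, 102811141 to 102901669) had 143, 149, 136 and 142 TPM in ASO libraries and 130, 119, 132 and 124 TPM in control libraries. Again no control library reached the lowest ASO library. The log2 fold change was 0.19 ± 0.05 (adjusted p = 0.033), or 14% more, and the counts, made per gene and not per splice form, came to 30114 reads in ASO and 25931 in control libraries. Its call held only without ASO replicate 1 (adjusted p = 0.0497) or control replicate 3 (0.0281), and reached 0.109 without control replicate 2. It also ended without ASO replicate 2 (0.0619), ASO replicate 3 (0.0571), ASO replicate 4 (0.0787), control replicate 1 (0.0615) or control replicate 4 (0.0845). It ended likewise in samples 1 and 2 alone (0.22, adjusted p = 0.0671) and in samples 3 and 4 alone (0.16, adjusted p = 0.169).

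The partners of these proteins did not pass. Of 13 other tested genes for the linker proteins ezrin, moesin and radixin, the RhoA arm, hyaluronan receptor sheddases and further partners, 0 were higher and 0 were lower in this edgeR fit. Over all tested genes 14.6% were called, and so few genes cannot set the list apart from that share. Their median log2 fold change was -0.0057. Rhoa, the small GTPase that podoplanin activates, stood at 201 ± 5.68 TPM in ASO and 199 ± 7.17 TPM in control (0.03 ± 0.05, adjusted p = 0.71), and its relative Rhoc at 647 ± 24.3 TPM in ASO and 667 ± 29.4 TPM in control (-0.03 ± 0.05, adjusted p = 0.79). Moesin (Msn), at 136 ± 5.17 TPM in ASO and 135 ± 1.57 TPM in control, was the most abundant gene of the 3 linkers and also did not pass (adjusted p = 0.71); it was named after its value had been seen.

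Of the actin-binding markers, Capg was higher and Dstn lower. CapG is a gelsolin relative that caps the fast-growing ends of actin filaments without severing them, and destrin, a relative of cofilin, severs and depolymerises filaments. Capg (gene 12332, chromosome 6, 72538282 to 72562983) had 635, 659, 601 and 621 TPM in ASO libraries, against 540, 574, 580 and 592 TPM in control libraries. The groups did not overlap, but the gap was narrow beside a log2 fold change of 0.17 ± 0.05 (adjusted p = 0.045). The call of Capg ended in each of the 8 fits that left out 1 library, with the adjusted p from 0.0567 without control replicate 3 to 0.141 without control replicate 1. The other 6 values were 0.0655, 0.0846, 0.0792 and 0.0926 without ASO replicates 1 to 4, 0.0954 without control replicate 2 and 0.0689 without control replicate 4. It also ended with no filter on low counts (adjusted p = 0.0670), in samples 1 and 2 alone (0.22, adjusted p = 0.0652) and in samples 3 and 4 alone (0.12, adjusted p = 0.293).

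CapG is abundant in macrophages, and the macrophage gene Cd68 was higher with the ASO. The 4 myeloid markers with a row summed to 28.2 to 36.2 TPM in ASO libraries and 8.39 to 13.3 TPM in control libraries, and Cd68 alone made up most of it (29.8 ± 3.33 TPM in ASO and 10.4 ± 2.07 TPM in control). Of the 2 that were tested, Cd68 was higher (1.54 ± 0.13, adjusted p = 1.7e-05) and Csf1r did not pass (0.68 ± 0.22, adjusted p = 0.052). The defining markers Ptprc, with 2 to 13 reads per library, and Itgam, with 0 to 4, were near 0 in all 8 libraries. Itgam had 10 reads in all ASO libraries together and 1 in the control libraries, and Ptprc had 30 and 28. CD44 is also carried by myeloid cells, and the part of myeloid expression in the changes of Capg and Cd44 was not tested.

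Dstn (gene 56431, chromosome 2, 143915331 to 143943324) had 143, 138, 139 and 135 TPM in ASO libraries and 167, 155, 170 and 175 TPM in control libraries. All ASO libraries lay close together and below the lowest control library. The log2 fold change was -0.25 ± 0.06 (adjusted p = 0.011), a fall of 15.8%, and the adjusted p stayed between 0.0131 and 0.0365 when any 1 library was left out. In samples 3 and 4 alone Dstn was lower (-0.29, adjusted p = 0.00659), and in samples 1 and 2 alone the value was -0.20 (adjusted p = 0.103). The difference between these parts did not pass (-0.10 ± 0.10, edgeR adjusted p = 0.93).

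Among 21 other tested genes that sever or cap actin or regulate those proteins, 1 was higher and 4 were lower, against 7.11% higher and 7.53% lower of all tested genes, with a median log2 fold change of 0.04. Avil, which encodes the gelsolin relative advillin, was higher at 12.3, 13.3, 10.8 and 10.7 TPM in ASO libraries, against 6.27, 4.33, 6.23 and 7.96 TPM in control libraries (0.97 ± 0.14, adjusted p = 7.1e-04). Tmsb4x, whose product thymosin beta-4 holds monomeric actin in reserve, averaged 147 ± 10.9 TPM in ASO and 226 ± 26.5 TPM in control (-0.60 ± 0.09, adjusted p = 9.1e-04). Gsn, the gelsolin gene, stood at 1236 ± 187 TPM in ASO and 1770 ± 330 TPM in control (-0.50 ± 0.12, adjusted p = 0.014). Its lowest control library, at 1463 TPM, lay above its highest ASO library, at 1427 TPM, and its call ended on log2(TPM + 1) without a filter (limma adjusted p = 0.0758). Supervillin (Svil) was lower by a log2 fold change of -0.55 ± 0.15 (adjusted p = 0.023). Its groups overlapped, with 13.1 TPM in ASO library 1 and 12.7 TPM in control library 3. Its call ended without ASO replicate 3 (0.0725), ASO replicate 4 (0.0657), control replicate 1 (0.0651) or control replicate 2 (0.0732). It ended as well with robust edgeR (0.0663) and on log2(TPM + 1) without a filter (0.0991). The kinase gene Tesk1 was the remaining lower gene (-0.22 ± 0.07, adjusted p = 0.047). Its groups overlapped in CPM, and it was named after its value had been seen. Cofilin-1 (Cfl1), the close relative of destrin, was present at 2057 ± 146 TPM in ASO and 2006 ± 60.6 TPM in control and did not pass (0.06 ± 0.07, adjusted p = 0.61); it too was named after its value had been seen.

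**Figure D3:**
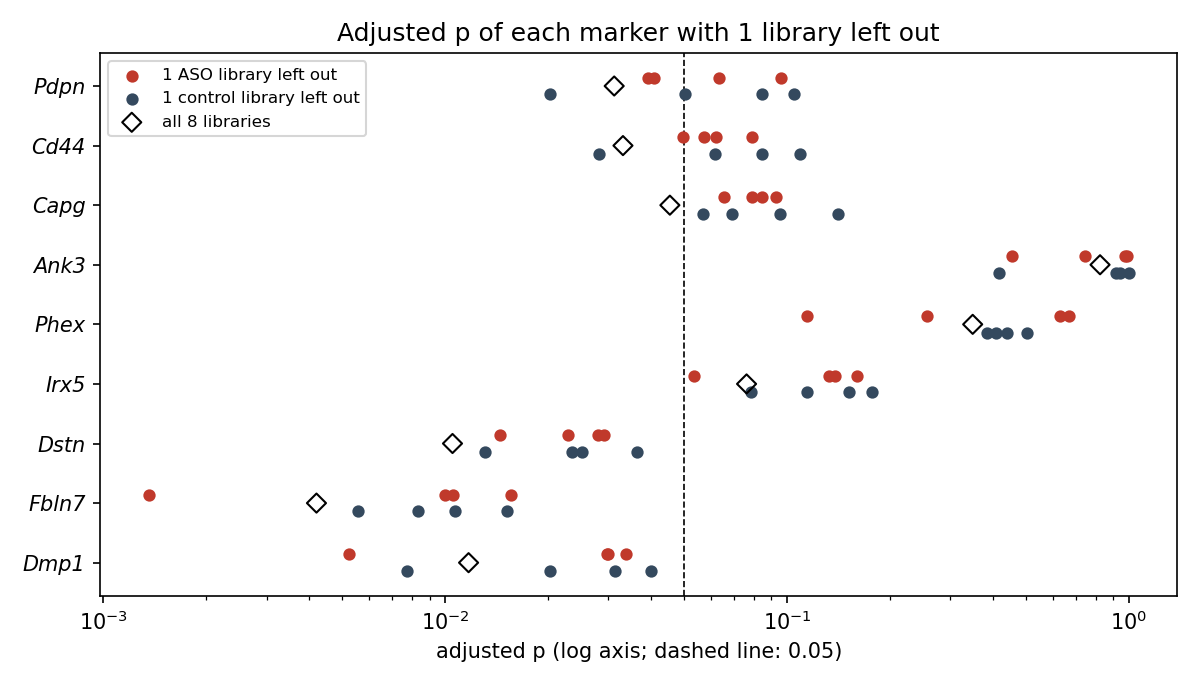
Adjusted p of the 9 tested markers (log axis) with all 8 libraries (open diamonds) and with each ASO or control library left out in turn (points), beside the 0.05 threshold (dashed). All points of Dmp1, Fbln7 and Dstn lie under the threshold, all of Capg lie above it, and those of Pdpn and Cd44 lie on both sides.

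Fbln7 was the marker with the smallest adjusted p. It encodes fibulin-7, a secreted glycoprotein first described in teeth that binds cells and matrix. Fbln7 (gene 70370, chromosome 2, 128863865 to 128897034) had 32.3, 29.7, 26.3 and 23.4 TPM in ASO libraries, against 38.9, 43.4, 37.1 and 36.5 TPM in control libraries. ASO samples 3 and 4 were the lowest of the ASO group and control samples 3 and 4 the lowest of the control group. The level was 27.9 ± 3.89 TPM in ASO and 39.0 ± 3.13 TPM in control, a log2 fold change of -0.46 ± 0.09 (adjusted p = 0.0042), or 27.4% less. It was lower in samples 1 and 2 alone (-0.41, adjusted p = 0.0149) and in samples 3 and 4 alone (-0.52, adjusted p = 3.3e-05). With any 1 library left out the adjusted p was at most 0.0156.

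The 6 other tested fibulin genes had a median log2 fold change of -0.10. Of these 6, 0 were higher and 1 was lower, close to the 14.6% called in either direction over all tested genes (7.11% higher and 7.53% lower). It was Fbln5, whose product is needed to assemble elastic fibres, at 10.5, 9.75, 13.1 and 11.8 TPM in ASO libraries and 14.9, 15.6, 17.8 and 16.5 TPM in control libraries. No ASO library of Fbln5 reached the lowest control library (-0.48 ± 0.09, adjusted p = 0.0045). In contrast to Fbln7, its values were higher in samples 3 and 4 than in samples 1 and 2 of each group. The most abundant family members, Efemp2 at 725 ± 9.46 TPM in ASO and 739 ± 17.7 TPM in control and Efemp1 at 594 ± 53.2 TPM in ASO and 682 ± 61.4 TPM in control, did not pass (adjusted p = 0.97 and 0.11) and were named after their values had been seen.

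The transcription factor markers Irx5 and Mef2c lay at very different levels and neither was called. Irx5 is an Iroquois homeobox factor whose human counterpart is mutated in a syndrome of craniofacial bone. Irx5 (gene 54352, chromosome 8, 92357796 to 92361456) had 17.0, 15.5, 15.5 and 15.2 TPM in ASO libraries and 18.1, 18.7, 19.2 and 17.3 TPM in control libraries. The groups did not overlap, the highest ASO library being just under the lowest control library. The log2 fold change was -0.19 ± 0.07, which did not pass (adjusted p = 0.076), with a 95% interval of -0.34 to -0.05 that is not adjusted for the number of genes. With the division of the samples as a term the adjusted p was 0.0415, and over the 8 fits that left out 1 library it lay between 0.0534 and 0.177. Of the other Iroquois genes, Irx3 had 29.3 ± 3.69 TPM in ASO and 27.3 ± 1.06 TPM in control (0.12 ± 0.08, adjusted p = 0.33) and Irx2 from 9.18 to 11.0 TPM in ASO and from 8.76 to 11.8 TPM in control (-0.0048 ± 0.11, adjusted p = 0.98). Thus 0 of these 2 were called, against 14.6% of all tested genes.

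Mef2c (gene 17260, chromosome 13, 83504017 to 83667079) had 0, 2, 2 and 0 reads in ASO libraries, against 1, 1, 0 and 3 reads in control libraries. No library held more than the 3 reads that a count of 0 allows, so no fold is given, and a difference was not detectable at this depth. Other MEF2 factors were present in the same cells. Mef2d stood at 97.6 ± 5.55 TPM in ASO and 95.2 ± 3.43 TPM in control (0.06 ± 0.05, adjusted p = 0.52) and was named after its value had been seen. Mef2a had 77.3, 78.7, 64.2 and 63.0 TPM in ASO libraries and 111, 119, 92.4 and 100 TPM in control libraries. The groups of Mef2a did not overlap, and samples 3 and 4 were below samples 1 and 2 in both (-0.57 ± 0.09, adjusted p = 0.0011).

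Class IIa histone deacetylases bind MEF2 factors and repress their targets, and salt-inducible kinases (SIK) keep those deacetylases out of the nucleus. The list of MEF2, deacetylase and SIK genes, which also holds Crtc2, had 10 tested genes, with none of the osteocyte markers among them. Of these 10, 3 were higher and 1 was lower, against 7.11% higher and 7.53% lower of all tested genes (median log2 fold change of the 10 genes 0.0045). Beside Mef2a, the 3 higher genes were Sik1 (0.46 ± 0.10, adjusted p = 0.0079), Hdac5 (0.25 ± 0.06, adjusted p = 0.017) and Sik3 (0.18 ± 0.05, adjusted p = 0.043). Sik1 stood at 27.6 ± 5.46 TPM in ASO and 20.2 ± 0.90 TPM in control, and Hdac5 at 124 ± 11.3 TPM in ASO and 106 ± 6.52 TPM in control. The call of Sik1 ended on log2(TPM + 1) without a filter (limma adjusted p = 0.0760). The call of Hdac5 ended without control replicate 4 (adjusted p = 0.0541) and in all 3 fits on deposited TPM (limma adjusted p from 0.0613 to 0.0947). Among the fits without 1 library, that of Sik3 held only without ASO replicate 4 (0.0468), and ended without ASO replicates 1 (0.0836), 2 (0.0700) or 3 (0.0914) and without control replicates 1 (0.0901), 2 (0.0606), 3 (0.0955) or 4 (0.0888). It ended too with no filter on low counts (0.0589), in all 3 fits on deposited TPM (0.0898 to 0.0950), in samples 1 and 2 alone (0.127) and in samples 3 and 4 alone (0.0936).

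Ank3 did not differ beyond the spread between replicates. It encodes ankyrin-G, an adaptor that ties membrane proteins to the spectrin skeleton. Ank3 (gene 11735, chromosome 10, 69533486 to 70027436) had 8.95, 10.4, 7.88 and 8.05 TPM in ASO libraries and 9.23, 9.30, 7.69 and 9.89 TPM in control libraries. Within the overlapping ranges, ASO library 2 was the highest of all and control library 3 the lowest. The log2 fold change was -0.03 ± 0.08 (adjusted p = 0.82), with a 95% interval of -0.21 to 0.15. Its estimated counts were not whole in all 8 libraries, unlike those of the other 9 markers, so its values are uncertain where reads were divided between genes. No other annotated gene shared exon bases with Ank3 or with any other marker in GENCODE M21. Of 6 other tested ankyrin and spectrin genes, 0 were higher and 0 were lower in this edgeR fit, against 14.6% called over all tested genes. Among the 6 were the spectrin genes Sptan1 (-0.13 ± 0.06, adjusted p = 0.18) and Sptbn1 (-0.02 ± 0.08, adjusted p = 0.91).

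By level per gene length, the early markers stood far above the late ones. Averaged over the 8 libraries, Capg had 601 TPM, Pdpn 182, Dstn 153 and Cd44 134 TPM, followed by Fbln7 at 33.5, Irx5 at 17.1, Ank3 at 8.93, Phex at 2.73, Dmp1 at 0.77 and Mef2c at 0.016 TPM. Most neighbours in this order had ranges that did not overlap in either group. The exceptions lay among Pdpn, Dstn and Cd44, whose order differed between the groups. In ASO libraries Dstn (135 to 143 TPM) overlapped Cd44 (136 to 149 TPM) and lay under Pdpn (187 to 205 TPM), whereas in control libraries Dstn (155 to 175 TPM) overlapped Pdpn (154 to 181 TPM) and lay above Cd44 (119 to 132 TPM). Among all 16369 genes of the table, Capg ranked above 98.4% by mean TPM, Phex above 37.5%, Dmp1 above 29.3% and Mef2c above 8.45%.

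The 11 other tested genes known from osteocytes had a median log2 fold change of 0.0045. Of these 11, 0 were higher and 2 were lower, close to the 14.6% called in either direction over all tested genes (7.11% higher and 7.53% lower). Tnfrsf11b, the osteoprotegerin gene, stood at 4.02 ± 1.26 TPM in ASO and 7.15 ± 0.72 TPM in control (-0.81 ± 0.17, adjusted p = 0.0075). Cdkn1a, which encodes the cell cycle inhibitor p21, stood at 232 ± 15.3 TPM in ASO and 272 ± 11.3 TPM in control (-0.21 ± 0.06, adjusted p = 0.036). The call of Cdkn1a ended without ASO replicate 1 (0.0772) or 3 (0.0650) and without control replicate 1 (0.0862), 3 (0.0576) or 4 (0.0901), with library-size scaling alone (0.0624), in samples 1 and 2 alone (0.0901) and in samples 3 and 4 alone (0.0957). The tenascin gene Tnc (0.0045 ± 0.07) and the connexin gene Gja1 (-0.0064 ± 0.06) did not pass (adjusted p = 0.97 and 0.96) and were named after their values had been seen.

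**Figure D4:**
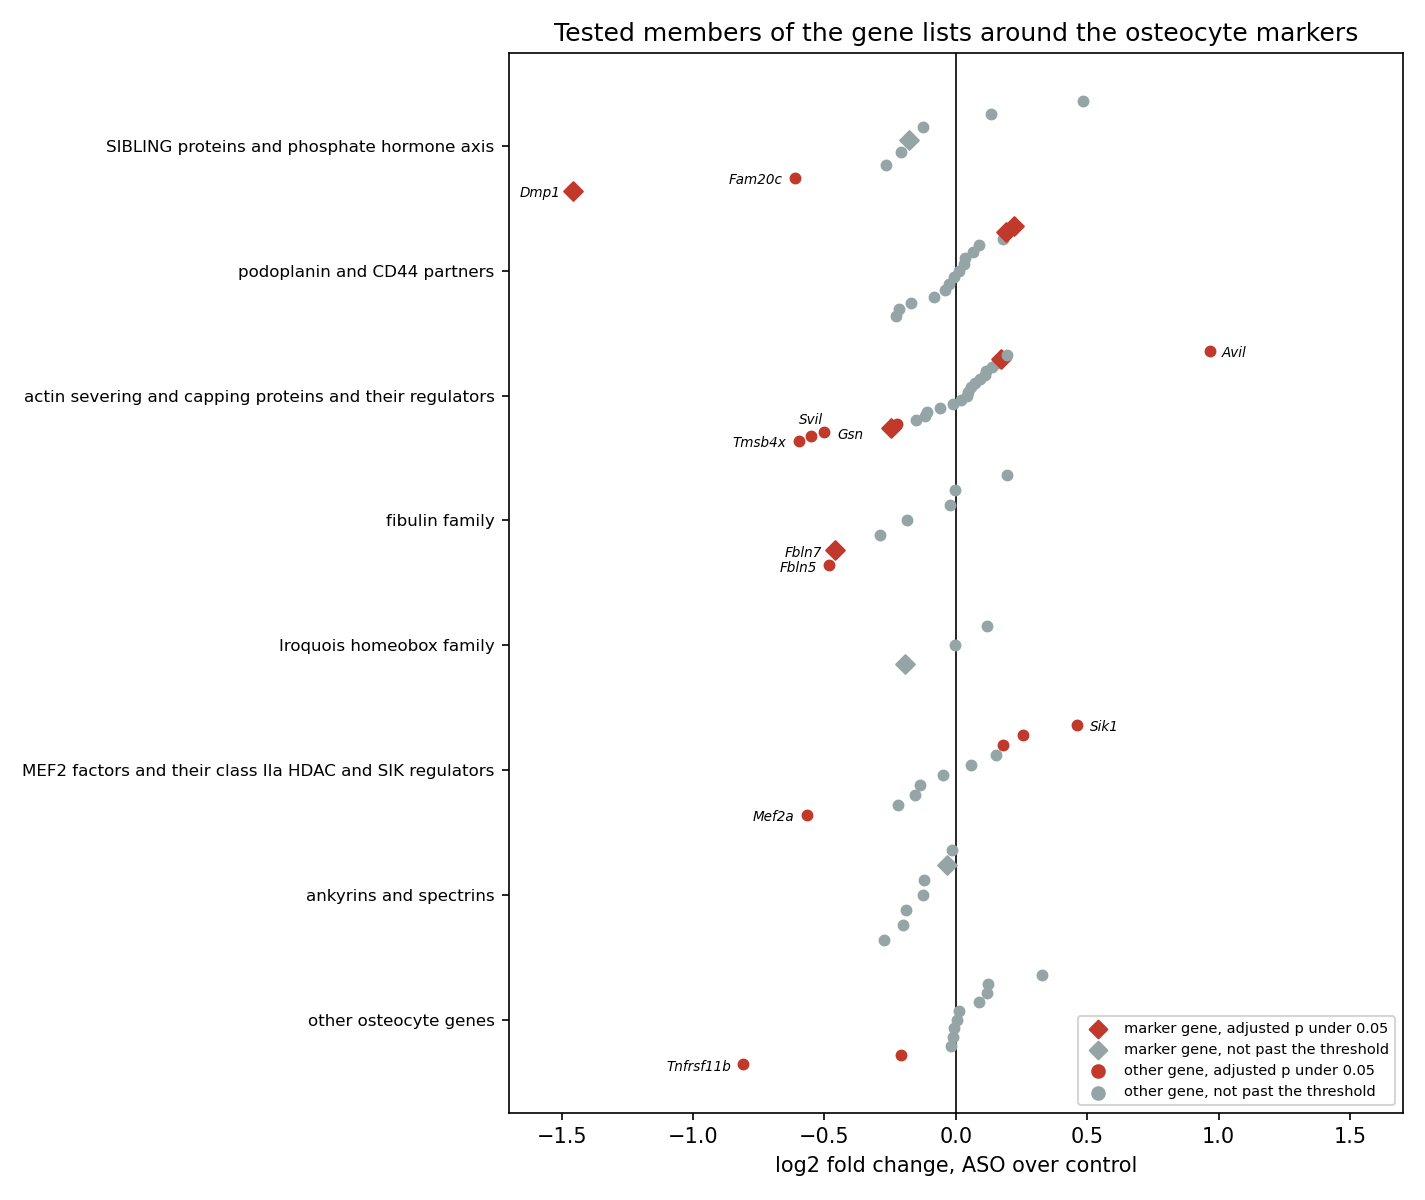
Log2 fold change of ASO over control for the tested members of 8 gene lists around the osteocyte markers, with markers as diamonds, other genes as circles and called genes in red. Most members lie close to 0, and Dmp1, Tnfrsf11b, Fam20c, Tmsb4x and Mef2a are the lowest called genes while Avil is the highest.

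Likeness to each called marker was measured as the root mean square difference in centred log2 CPM over the 8 libraries. The candidates were 11265 tested genes with a mean of at least 1 CPM. Genes with predicted, clone or pseudogene names were left out. Atp1b2, a sodium pump subunit gene, was nearest to Dmp1 at 0.22 log2 units, followed by the elastin gene Eln at 0.27. Mtss2 (0.044) and Zbtb2 (0.050) were nearest to Fbln7, and Ddx51 (0.037) and Sdc4 (0.038), the syndecan-4 gene, to Dstn. All these genes nearest to the lower markers were themselves called. Among the higher markers, Lactb2 (0.025) and the cyclin gene Ccnd2 (0.038) were nearest to Pdpn, and neither was called (edgeR adjusted p = 0.069 and 0.063). Faf2 (0.025) and the receptor kinase gene Axl (0.031) were nearest to Cd44, and Adamtsl4 (0.026) and Gnb1 (0.030) to Capg. Faf2 and Adamtsl4 were called (edgeR adjusted p = 0.032 and 0.043), whereas Axl and Gnb1 were not (0.069 and 0.056). All of these distances share the contrast of the groups, and Dmp1 also had the lowest counts of the 6 called markers.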

How the data were processed

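RNA-seq of 8 MLO-Y4 samples, 4 ASO and 4 control, was used, grouped by the sample titles. Per the submitters' processing notes, the tools were HISAT and Bowtie2, with no role or version given, and the genome is named as GRCm38.p6 and as mm10; the counting tool is not given in the sources used here, and the strandedness of the kit is unclear. The authors deposited estimated counts, FPKM and TPM per library with group means, per the file headers. The deposited FPKM values and the 6 mean columns were not used. The deposited TPM, corrected for gene length and scaled to 1 shared library total, served for levels.

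Estimated counts (6.01% to 6.60% of genes not whole per library) were rounded, filtered with filterByExpr (12227 genes kept) and tested in edgeR 4.0.16 under R 4.3.3 after TMM scaling, group as the only term, Benjamini-Hochberg threshold 0.05. Replicates differed by more than sampling noise (chi-square per degree of freedom 4.71 to 18.3). Same-numbered samples correlated by 0.0489 to 0.214 in their deviations from the group means, so the numbers were not taken as pairs. The members and the gene lists were chosen with earlier results of these data known. Named genes were the 10 markers, up to 4 called members of each list by p (or the 2 highest by TPM where none was called), and the 2 genes nearest to each called marker. Coordinates and promoter windows are from RefSeq, GRCm38.p6, matched by gene identifier (16321 genes, 99.7%). Irx5 and Ank3 have no window used here. Alternatives were DESeq2 1.42.0, limma 3.58.1 (voom, and trend on log2 TPM with a pseudocount of 1 or 0.1, above a mean of 1 TPM or unfiltered), other scalings and filters (none, or 5 CPM in 4 libraries), edgeR with robust fitting, the replicate number as a block, fits without 1 library, the sample division, and a threshold of 0.01. The edgeR procedure was also run on simulated data, whose outcome is not given here and lends no support to the calls.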

Additional observations from a re-analysis of the deposited data

Results flagged for a closer look

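Of 56 groups of 4 libraries examined (28 genes in ASO and in control), 1 had a library far from the other 3. Tmsb4x stood at 163.41 TPM in ASO replicate 3, while the other ASO libraries lay between 139.65 and 143.52 TPM. Its gap took 0.837 of the range of the group, above the 95% critical value of Dixon for 4 libraries, and chance gives about 1 such group in 20. Without that library Tmsb4x was still lower (adjusted p = 0.00106). No osteocyte marker was set apart in this way.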

How the results depend on the processing

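The directions of all 9 tested markers held under every scaling, filter and tool tried on counts. Of the calls, that of Capg ended with no filter (0.1703, adjusted p = 0.0670) and the others held. The exceptions by direction were Phex in samples 1 and 2 alone (0.0478, against -0.4404 in samples 3 and 4 alone) and Ank3 in samples 1 and 2 alone (0.0338) or with a library left out (-0.0991 to 0.00702). On deposited TPM, with a pseudocount of 1, of 0.1, and of 1 without a filter, the fold changes lost their calls at 0.1705, 0.1716 and 0.1705 for Cd44 and at 0.1378, 0.138 and 0.1378 for Capg. Pdpn lost its call with 0.1 (0.2022) and without a filter (0.2011). The higher markers then numbered 1, 0 and 0 in place of 3, and Dmp1, too low for a mean of 1 TPM, was -0.5957 without a filter. In samples 1 and 2 alone 0 markers were higher (edgeR, Pdpn 0.2192, Cd44 0.2226, Capg 0.2234) and Dstn lost its call (-0.1975). In samples 3 and 4 alone 1 was higher, Pdpn (0.2241), and Cd44 (0.1586) and Capg (0.1239) lost their calls. With the sample division as a term Irx5 passed (-0.1935). At a threshold of 0.01, 0 markers were higher and 1 was lower. With a library left out, 0 to 2 markers were higher, and the fold changes ran from 0.1803 to 0.2572 for Pdpn, 0.1617 to 0.2141 for Cd44 and 0.1424 to 0.1862 for Capg. Of all genes 1790 were called, against 1167 with log2(TPM + 1) and no filter, 3136 with the division as a term, 1036 in samples 1 and 2 alone, 702 at 0.01 and 1105 to 1940 with a library left out. The replicate block called 2575 genes and changed no marker call; one same-number correlation, 0.0489, was under 0.1. Genes near 0 that turned sign were Rhoc (0.0019 in samples 3 and 4; -0.0467 to 0.00607 with a library left out), Irx3 (-0.0386 in samples 3 and 4), Irx2 (upper quartile 0.0030, library size 0.0126, voom 0.00245; -0.0780 to 0.0722 with a library left out) and Sptbn1 (library size 0.0012; -0.0658 to 0.0299 with a library left out). The causes were not tested. Dmp1 also falls under the filter of 5 CPM, and few reads limit Dmp1 and Mef2c.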
